A study of Mus musculus with 8 samples.

Results

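Cholesterol genes were compared between brains of mice labelled as lacking tumour necrosis factor (TNF) and brains of wild-type mice, and none of those measured differed past the false discovery threshold. The set was chosen by function and holds 32 genes of sterol synthesis, its control, and sterol transport and turnover; 30 of them have a probe set that pairs with a single gene symbol and were measured, among 19938 genes in all. Acat2 and Nr1h2 were not analysed here. Of the 30, 22 belong to synthesis (17 enzymes and 5 regulators) and 8 to transport, turnover and the liver X receptors.

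Total RNA of frozen brains was hybridised to Affymetrix Mouse Gene 1.0 ST arrays, 1 per animal sample, in a study that asked what the absence of TNF does to gene expression, cell composition and the barrier of the brain. The arrays fall into 4 labelled TNF-/- and 4 labelled TNF+/+ C57BL/6, all of adult males between 2 and 4 months old, with no treatment named. Each array is called a biological replicate, so p-values measure the spread between these samples. The labels name neither the targeted allele nor the strain of the TNF-/- mice. Because each value comes from lysed brain, fewer cells of a type and less RNA per cell cannot be told apart.

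The brain makes nearly all of its own cholesterol, since lipoproteins of the blood do not cross the blood-brain barrier. Myelin holds most of it, and in the adult astrocytes make much of what neurons use, handing it over on particles that carry apolipoprotein E. Synthesis runs from acetyl-CoA through mevalonate and squalene to lanosterol and then through a series of demethylations and reductions. Its genes are switched together by the transcription factors SREBP (sterol regulatory element binding proteins), which stay in the endoplasmic reticulum while sterol is plentiful; liver X receptors answer to oxysterols and switch on efflux.

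Facts of the whole series that touch these genes are few. Signals are log2 values, with array medians between 5.03 and 5.11. The upper quartiles were 7.23 to 7.28 in the arrays labelled TNF-/- against 7.19 to 7.22, and did not overlap. Nor did the lower quartiles, 3.95 to 3.97 against 4.00 to 4.04. The part of these shifts in the results below was not tested beyond refits on rescaled signals. On the first principal component, which held 24% of the variance, TNF+/+ arrays 3 and 4 scored 22.05 and 37.22 and the other 6 arrays -4.29 or lower. The Tnf probe set went against the labels: arrays labelled TNF-/- gave 5.92 ± 0.22 (SD, n = 4) for it and the TNF+/+ arrays gave 4.53 ± 0.29 (SD, n = 4). No source used here tells where its probes lie relative to the deletion, and whether the labels are exchanged could not be tested. Every direction below is that of arrays as labelled, and an exchange of labels would turn the sign of each difference. Limma's adjusted p was under 0.05 for 29 of the 35556 probe sets (0.0816%), and Significance Analysis of Microarrays (SAM), which the study names, called 53 (0.149%). Of the 13 oligodendrocyte markers 12 had less signal under the label TNF-/- (median difference -0.27 on the log2 scale), and the list's means were 8.98 to 9.09 there against 9.09 to 9.36. At an unadjusted p under 0.05 (limma) 6 of them were lower (46.2%, beside 4.28% of all genes) and 0 higher. Groups did not overlap for 5, all lower, as for 3.50% of all genes. The 10 astrocyte markers had a median of 0.00 and means of 9.38 to 9.59 against 9.44 to 9.55. Neuron markers such as Syt1 and Snap25, astrocyte markers such as Aldoc and Slc1a2 and the oligodendrocyte markers Trf and Cnp all had signals between 9.91 and 12.73, so that defining markers of the labelled tissue were present. Markers of choroid plexus and meninges were higher in 8 of 9 cases (median 0.15) and those of microglia lower in 7 of 9 (median -0.11). Medians were 0.01 for 10 neuron markers, -0.02 for 6 of endothelium, -0.12 for 3 of blood and -0.22 for 8 of cerebellum, with 0 calls in any marker list. The part of these marker differences in the results below was not tested.

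Among the 30 measured members, 0 passed by limma and 0 by SAM, and the lowest adjusted p was 0.361. Higher signal in the arrays labelled TNF-/- was seen for 20 members and lower for 10, a share higher of 66.7% beside 47.8% over all genes. Quantile normalization left 15 members higher and 15 lower, beside 51.6% of all genes higher. Among probe sets at or above the median of mean signals, which keep 29 members, the shares were 65.5% for members and 64.4% for all 10674 genes, so that the members' share was near the background there. At an unadjusted p under 0.05 there were 4 members higher (13.3%) and 0 lower, where all genes gave 7.37% higher and 4.28% lower. These background shares were not computed for genes at or above the median of mean signals alone. Groups did not overlap for 1 member, which was higher (4.16% of all genes were higher and 3.50% lower without overlap). The largest differences were 0.27 for Nsdhl and Stard4 and -0.17 for Ebp. The 95% intervals of limma lay within a change of 1.5-fold in either direction for 29 of the 30 members and within 1.25-fold for 20; Stard4 was the exception at the wider limit, with an interval from -0.10 to 0.64.

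**Figure D1:**
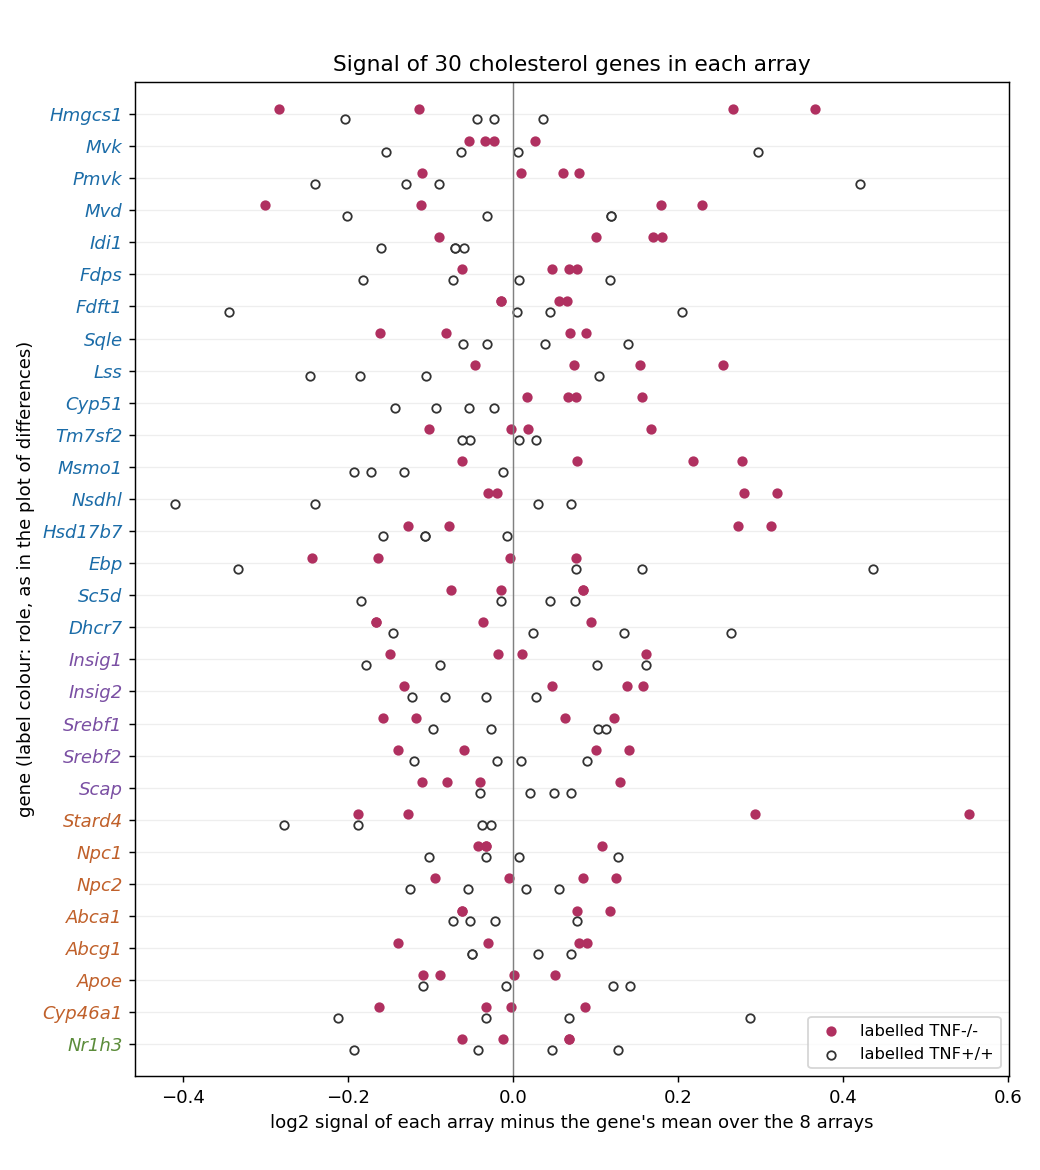
Log2 signal of each array minus the gene's mean over the 8 arrays (horizontal axis) for the 30 measured genes (vertical axis); filled points are the 4 arrays labelled TNF-/-, open points the 4 labelled TNF+/+. The groups overlap for every gene except Cyp51, and Stard4 spans the widest range within the TNF-/- label, from 6.86 to 7.60.

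The enzymes of synthesis gave the 4 members with an unadjusted p under 0.05, all of them higher in the arrays labelled TNF-/-. These 4 made up 23.5% of the enzymes, beside 7.37% of all genes. Of 17 enzymes 12 were higher and 5 lower, with a median of 0.05 beside -0.01 over all genes. All 17 had probe sets at or above the median of mean signals, where 64.4% of genes were higher, beside 70.6% of the enzymes. Msmo1 oxidises the methyl groups of sterol intermediates. Its signals were 11.10, 11.24, 11.38 and 11.44 with the TNF-/- label against 10.97, 11.15, 11.03 and 10.99 with the TNF+/+ label. Only TNF-/- array 1 lay within the range of the other group. The difference was 0.25 ± 0.08 (SE), a fold of 1.19 with an interval of 1.04 to 1.36 (limma, unadjusted p = 0.015, adjusted p = 0.361).

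Cyp51 encodes the lanosterol demethylase that opens the sterol part of the pathway. It read 8.01, 7.95, 8.0 and 8.09 in the arrays labelled TNF-/- and 7.91, 7.84, 7.79 and 7.88 in the others. All 4 of the former lay above all 4 of the latter, by a gap smaller than the spread within either group. The difference was 0.16 ± 0.05 (SE; limma, unadjusted p = 0.0192, adjusted p = 0.378). Idi1, the isomerase that makes the allylic building block of isoprenoids, read 8.73, 8.99, 8.92 and 9.0 against 8.66, 8.75, 8.75 and 8.76. TNF-/- array 1 again lay inside the other group's range, and the difference was 0.19 ± 0.07 (limma, unadjusted p = 0.0285, adjusted p = 0.41). The dimmer of the 2 probe sets of Idi1 differed by 0.12 ± 0.07 (limma, unadjusted p = 0.115). Lss, which closes the ring system to lanosterol, read 6.67, 6.79, 6.87 and 6.97 against 6.53, 6.82, 6.61 and 6.47. Here TNF+/+ array 2 lay among the TNF-/- values, and the difference was 0.22 ± 0.09 (limma, unadjusted p = 0.0486, adjusted p = 0.459).

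This count of 4 depended on scaling, on single arrays and on the choice of probe set. With the mean of a gene's probe sets it was 3, without Idi1. It was 2 after quantile normalization and after centring each array on its median, with differences between 0.12 and 0.24 for the 4 genes under both scalings. Without TNF+/+ arrays 3 and 4 the count was again 2, but of Pmvk (0.19) and Nsdhl (0.46). Idi1, Lss, Cyp51 and Msmo1 then differed by 0.21, 0.15, 0.13 and 0.23 (limma, unadjusted p = 0.0633, 0.245, 0.0893 and 0.0849). Msmo1 stayed under an unadjusted p of 0.05 under both scalings and with any single array left out. Leaving out a single array gave 2 for array 2 or array 3 of the TNF-/- label and for array 1 or array 3 of the TNF+/+ label, and 1 for TNF-/- array 4.

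The early, mevalonate steps had no common direction. Hmgcs1, which makes HMG-CoA, read 10.28, 10.11, 10.66 and 10.76 with the label TNF-/- against 10.35, 10.19, 10.43 and 10.37 with the label TNF+/+. Arrays 1 and 2 of the TNF-/- label lay below at least 3 of the TNF+/+ arrays and arrays 3 and 4 above all of them, so that the SD was 0.31 in the former group and 0.10 in the latter. The difference was 0.11 ± 0.14 (SE; limma, adjusted p = 0.792), and with 1 array left out it ranged from 0.011, without TNF-/- array 4, to 0.23, without TNF-/- array 2. Mevalonate kinase (Mvk), phosphomevalonate kinase (Pmvk) and the decarboxylase Mvd differed by -0.04 ± 0.09, 0.02 ± 0.13 and 0.00 ± 0.13. In TNF+/+ array 4 both kinases were high, at 6.22 for Mvk and 6.53 for Pmvk, against 5.95 and 6.19 at most in the other 7 arrays. Fdps, the farnesyl diphosphate synthase, differed by 0.07 ± 0.07.

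Of the squalene steps, Fdft1, the squalene synthase, differed by 0.05 ± 0.11 in its brighter probe set and by -0.08 ± 0.08 in the other. Sqle, the squalene epoxidase and a rate-controlling step, read 8.28, 8.20, 8.45 and 8.43 against 8.33, 8.30, 8.40 and 8.50, and differed by -0.04 ± 0.08 (SE; limma, adjusted p = 0.867). Its 2 groups covered nearly the same range, and its interval of -0.22 to 0.13 excludes a change of 1.25-fold in either direction.

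After lanosterol, Nsdhl, which removes a carboxyl group at the sterol ring, had the largest difference of the enzymes. It read 7.79, 7.80, 8.14 and 8.10 against 7.58, 7.41, 7.85 and 7.89. TNF+/+ arrays 3 and 4 lay above TNF-/- arrays 1 and 2, and the difference was 0.27 ± 0.13 (SE; limma, unadjusted p = 0.0702, adjusted p = 0.497). Hsd17b7, the ketosteroid reductase of the same complex, read 7.16, 7.21, 7.56 and 7.60 against 7.18, 7.28, 7.13 and 7.18. Only TNF-/- arrays 3 and 4 stood above the other group, and the difference was 0.19 ± 0.11 (limma, adjusted p = 0.566). The reductase Tm7sf2 and the desaturase Sc5d differed by 0.04 ± 0.07 each. Ebp, the sterol isomerase, differed by -0.17 ± 0.15 and Dhcr7, the reductase that completes cholesterol, by -0.14 ± 0.10 (limma, adjusted p = 0.711 and 0.632). TNF+/+ array 4 was the highest of all arrays for both, at 7.28 and 7.44. Without it Ebp differed by -0.05 and Dhcr7 by -0.074, and without TNF+/+ arrays 3 and 4 by 0.046 and -0.008. Without TNF+/+ array 2 Ebp differed by -0.31.

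**Figure D2:**
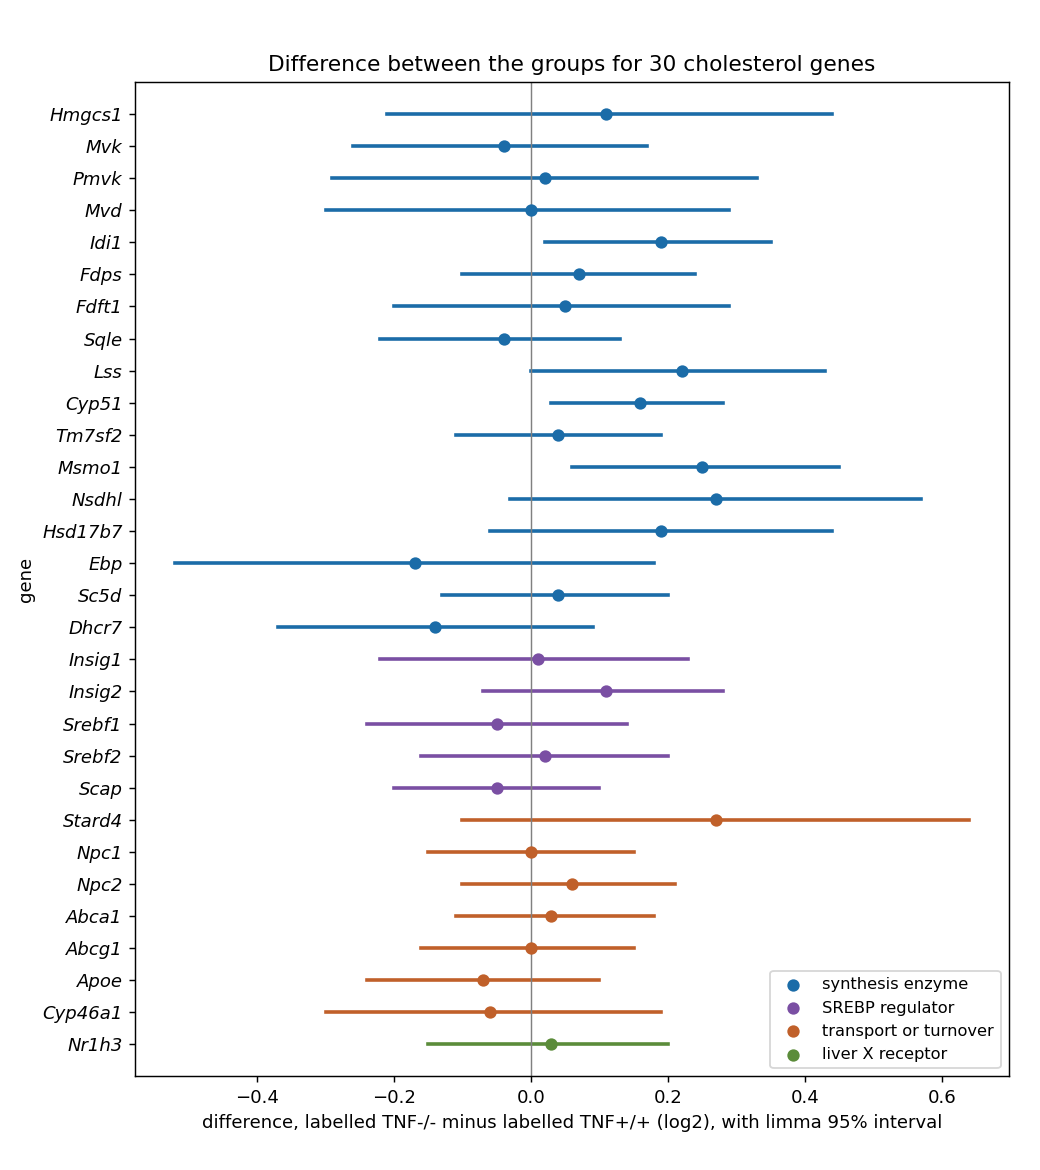
Difference between the groups, arrays labelled TNF-/- minus those labelled TNF+/+ on the log2 scale (horizontal axis), with limma's 95% interval as a line, for the 30 measured genes coloured by role. The intervals of Idi1, Lss, Cyp51 and Msmo1 lie above 0 and no interval lies below it; the widest upper end is that of Stard4, at 0.64.

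RefSeq promoters (GRCm38.p6, from 250 bases before to 50 after the start) were held by the table used here for 24 of the 30 members, 14 of them enzymes. Both strands were searched for the core of the sterol regulatory element, TCACNCCAC, where SREBP binds, and for the boxes of its usual partners: CCAAT for NF-Y and GGGCGG for Sp1. A CCAAT box was present in 14 of these 14 enzyme genes, in 4 of the 5 regulators and in 2 of 5 transport genes, beside 41.1% of all 27025 genes with a promoter (37.4% of 32851 promoters). GGGCGG was present in 13 enzyme genes, 5 regulators and 3 transport genes, beside 38.2% of genes (35.7% of promoters). An exact match to the sterol core was found for Hmgcs1 alone, beside 1.44% of genes (1.24% of promoters). The liver X receptor repeat, AGGTCA at both ends of any 4 bases, was found for 0 members, beside 0.0148% of genes. Forms that depart from these letters were not searched, so a missing match does not show that an element is absent. A gene with several starts was counted if any of them held the box.

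The promoters below belong to the 4 enzymes with an unadjusted p under 0.05 and to Hmgcs1, the gene with the sterol core. Each runs 5′ to 3′ on the strand of the gene. Capitals mark CCAAT, or ATTGG where the box lies on the opposite strand, and in Hmgcs1 also the sterol core.
Hmgcs1, chr13:119690101-119690400, plus strand: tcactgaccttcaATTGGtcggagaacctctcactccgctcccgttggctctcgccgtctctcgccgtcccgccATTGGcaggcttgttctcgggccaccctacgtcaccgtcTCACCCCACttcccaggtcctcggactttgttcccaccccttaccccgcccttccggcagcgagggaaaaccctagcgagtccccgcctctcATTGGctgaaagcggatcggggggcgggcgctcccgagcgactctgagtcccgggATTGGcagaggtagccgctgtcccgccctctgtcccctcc
Idi1, chr13:8885356-8885655, plus strand: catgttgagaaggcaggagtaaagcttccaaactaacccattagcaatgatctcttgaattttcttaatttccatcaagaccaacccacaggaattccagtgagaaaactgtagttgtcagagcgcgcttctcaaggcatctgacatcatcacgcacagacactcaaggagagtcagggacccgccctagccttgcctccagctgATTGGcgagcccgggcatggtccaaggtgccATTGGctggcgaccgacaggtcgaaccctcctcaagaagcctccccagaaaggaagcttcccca
Lss, chr10:76531355-76531654, plus strand: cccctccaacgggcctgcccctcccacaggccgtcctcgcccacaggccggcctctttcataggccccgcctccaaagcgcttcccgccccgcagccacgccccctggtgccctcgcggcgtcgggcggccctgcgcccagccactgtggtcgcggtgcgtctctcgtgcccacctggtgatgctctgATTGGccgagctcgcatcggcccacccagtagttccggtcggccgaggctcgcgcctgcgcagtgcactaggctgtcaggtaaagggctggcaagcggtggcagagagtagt
Cyp51, chr5:4104648-4104947, minus strand: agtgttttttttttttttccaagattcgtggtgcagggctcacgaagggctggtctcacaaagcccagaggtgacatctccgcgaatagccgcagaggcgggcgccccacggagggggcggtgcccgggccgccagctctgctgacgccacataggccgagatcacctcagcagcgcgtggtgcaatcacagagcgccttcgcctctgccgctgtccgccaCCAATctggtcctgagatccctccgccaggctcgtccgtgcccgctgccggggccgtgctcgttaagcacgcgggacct
Msmo1, chr8:64733529-64733828, minus strand: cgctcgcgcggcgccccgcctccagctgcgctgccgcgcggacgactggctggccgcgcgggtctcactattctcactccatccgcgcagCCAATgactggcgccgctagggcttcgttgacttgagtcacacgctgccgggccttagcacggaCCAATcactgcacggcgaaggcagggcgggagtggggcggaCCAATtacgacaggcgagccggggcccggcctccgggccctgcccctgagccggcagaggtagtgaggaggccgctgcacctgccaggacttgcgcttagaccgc

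In Hmgcs1 the sterol core lay at positions -137 to -129 relative to the start, with 4 CCAAT boxes around it, 3 upstream and 1 downstream of the start. Msmo1 held 3 CCAAT boxes, Idi1 held 2, and Lss and Cyp51 held 1 each. No box overlapped another kind of box in these 5 promoters. These are matches of letters and not measured binding.

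The 5 regulators of SREBP stayed close to 0, with a median of 0.01, 3 higher and 2 lower, and 0 at an unadjusted p under 0.05. Insig1, which holds SREBP in the endoplasmic reticulum and is itself an SREBP target, read 9.33, 9.49, 9.46 and 9.64 with the label TNF-/- against 9.30, 9.39, 9.58 and 9.64 with the label TNF+/+. The ranges were almost the same, and the difference was 0.01 ± 0.10 (SE; limma, adjusted p = 0.987). Its relative Insig2 differed by 0.11 ± 0.08. Srebf2, which encodes the SREBP of the sterol genes, read 9.32, 9.12, 9.28 and 9.04 against 9.19, 9.16, 9.27 and 9.06, a difference of 0.02 ± 0.08. Srebf1, whose products lean towards fatty acid genes, differed by -0.05 ± 0.08, and Scap, the escort of SREBP to the Golgi, by -0.05 ± 0.07. Each of these 5 intervals lay between -0.24 and 0.28.

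Transport and turnover genes had 4 of 7 members higher and 3 lower, with a median of 0.00. With the liver X receptor gene Nr1h3 added, the median over 8 was 0.02 as deposited, and it was -0.01 after quantile normalization. Stard4, a carrier of cholesterol between membranes and an SREBP target, read 6.86, 6.92, 7.60 and 7.34 with the label TNF-/- against 6.77, 7.01, 7.02 and 6.86 with the label TNF+/+. TNF-/- arrays 3 and 4 stood above every other array while arrays 1 and 2 lay within the other group. The difference was 0.27 ± 0.16 (SE; limma, adjusted p = 0.577), and it was 0.13 without TNF-/- array 3 and 0.38 without TNF-/- array 1. Npc1 and Npc2, which pass cholesterol out of the lysosome, differed by 0.00 ± 0.07 and 0.06 ± 0.07.

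Of the export genes, Abca1, which loads lipid onto apolipoproteins, read 7.23, 7.05, 7.19 and 7.05 against 7.04, 7.06, 7.19 and 7.09. The groups overlapped throughout, and the difference was 0.03 ± 0.06 (SE; limma, adjusted p = 0.87). Abcg1, its partner for lipidated particles, differed by 0.00 ± 0.07. Apoe, the main apolipoprotein of the brain, read 11.21, 11.10, 11.26 and 11.12 against 11.10, 11.20, 11.35 and 11.33, a difference of -0.07 ± 0.07 (limma, adjusted p = 0.744). Cyp46a1, the neuronal hydroxylase by which cholesterol leaves the brain, read 9.28, 9.16, 9.19 and 9.03 against 9.16, 8.98, 9.26 and 9.48, a difference of -0.06 ± 0.11. The lowest and the highest of these 8 values are both from TNF+/+ arrays. Nr1h3, which encodes liver X receptor alpha, was dim in all arrays (3.86 to 4.18, near the 25th percentile of each array, 3.95 to 4.04), and it differed by 0.03 ± 0.08.

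Set apart by array, the mean over the 17 enzymes was 7.87, 7.85, 7.98 and 8.02 with the label TNF-/- against 7.79, 7.80, 7.87 and 7.97 with the label TNF+/+. The group means, 7.93 ± 0.08 and 7.86 ± 0.08 (SD, n = 4), differed by 0.07, less than the SD in either group. The transport side, with Nr1h3, was 7.85 ± 0.06 against 7.82 ± 0.06 (SD, n = 4). The medians were 0.04 over synthesis members and 0.02 over transport members, and 0.005 and -0.014 after quantile normalization; the difference between them was not tested. Without TNF+/+ arrays 3 and 4, whose oligodendrocyte marker means were the highest of the series (9.30 and 9.36), the median over synthesis members was 0.115 and that over the enzymes 0.134.

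**Figure D3:**
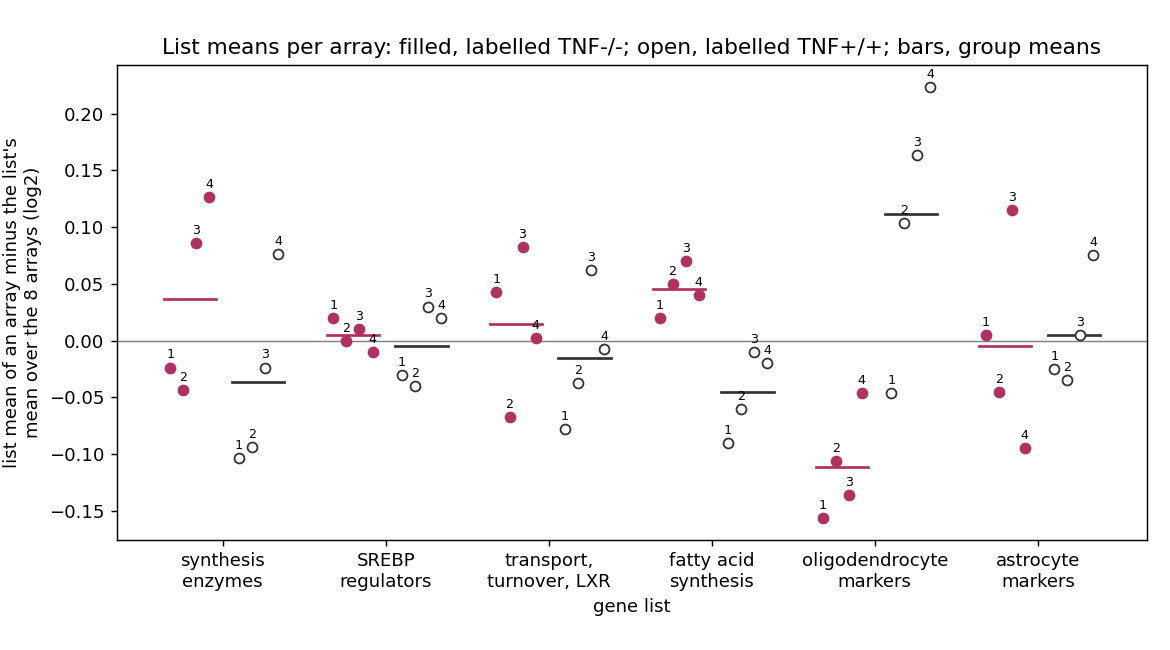
Mean of each gene list in each array minus the list's mean over the 8 arrays, on the log2 scale (vertical axis), for 6 lists (horizontal axis); numbers are array numbers, filled points the arrays labelled TNF-/-, open points those labelled TNF+/+ and bars the group means. Enzyme means overlap between the groups (7.85 to 8.02 and 7.79 to 7.97), and oligodendrocyte marker means touch at 9.09. Fatty acid means do not overlap (8.97 to 9.02 and 8.86 to 8.94). Neither do means of the SREBP processing list, not drawn (7.83 to 7.96 and 7.75 to 7.80). The arrays' upper quartiles of all signals are apart in the same direction (7.23 to 7.28 and 7.19 to 7.22). No background share was computed for list means.

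Within the groups the enzymes varied together more than most genes did with them. After each group's mean was removed, 9 of the 17 enzymes had a Pearson's r above 0.47 with the mean of the other enzymes over the 8 arrays. That value is the upper quartile of all 19921 other genes, whose median was 0.08. The enzymes' median r was 0.49. Transport and turnover genes had a median of 0.33, with 3 of 7 above the same value. Fatty acid genes had one of 0.36, with 5 of 13 above it, so that the pattern was not particular to the enzymes. Sqle had the highest r (0.95), followed by Nsdhl (0.85), Sc5d (0.80) and Hmgcs1 (0.70), while Lss (0.01) and Fdft1 (-0.26) did not follow. Among the regulators Insig1 went with the enzymes (0.81) and Srebf2 (-0.44) and Srebf1 (-0.32) did not. Stard4 and Npc2 had an r of 0.59 each, and Abca1 of 0.03. In the arrays labelled TNF-/- the enzyme mean was 0.05 and 0.09 above its group's mean in arrays 3 and 4 and stood at -0.06 and -0.08 from it in arrays 1 and 2, and in those labelled TNF+/+ array 4 was 0.11 above. The points share arrays and a normalization, and these correlations are a description.

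**Figure D4:**
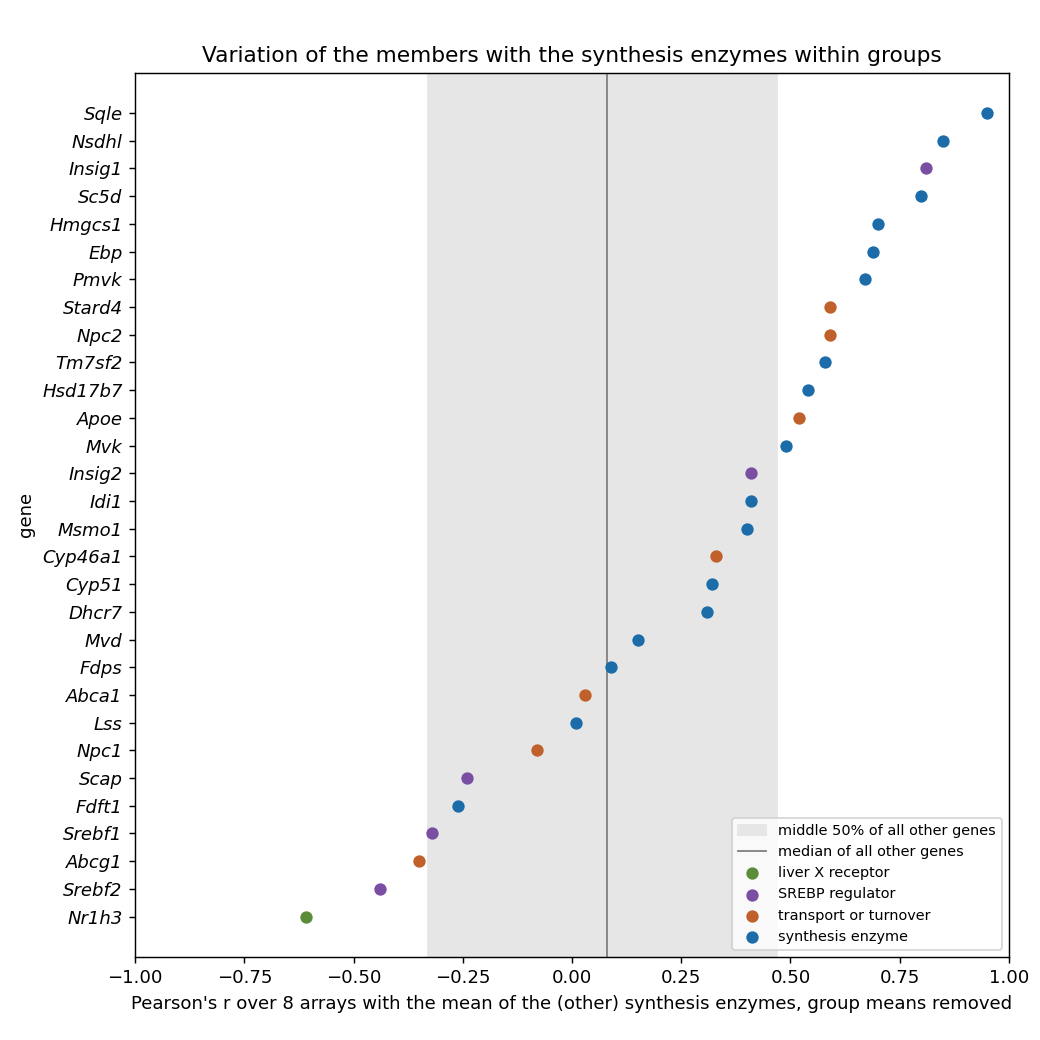
Pearson's r over the 8 arrays, group means removed, of each of the 30 measured genes (vertical axis) with the mean of the synthesis enzymes other than itself (horizontal axis); the grey band holds the middle of all 19921 other genes, from -0.33 to 0.47, and the line is their median, 0.08. Sqle lies highest at 0.95, and Nr1h3 lowest at -0.61.

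Other genes of the pathway were read from 6 lists of 66 genes, of which 55 were measured. Limma and SAM called 0 of them; 31 were higher and 24 lower, the median was 0.01, and 8 higher (14.5%) and 2 lower had an unadjusted p under 0.05, beside 7.37% and 4.28% of all genes. For the counts of each list, the background is 47.8% higher over all genes. It is 64.4% among genes at or above the median of mean signals. In SREBP processing, 5 of 6 genes were higher (median 0.13). Erlin1, whose protein sits in cholesterol-rich patches of the endoplasmic reticulum and restrains SREBP, read 6.72, 6.83, 6.80 and 6.68 against 6.47, 6.55, 6.50 and 6.37. The groups did not overlap, as for 4.16% of all genes in this direction. The difference was 0.29 ± 0.06 SE (limma, unadjusted p = 0.00139, adjusted p = 0.209). Its relative Erlin2 differed by 0.15 ± 0.07 and the SREBP protease gene Mbtps1 by 0.17 ± 0.11 (limma, adjusted p = 0.5 and 0.602).

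Further synthesis and oxysterol genes (8 measured, 3 higher) gave Ggps1, the geranylgeranyl diphosphate synthase, at 0.19 ± 0.07 (SE), Hsd3b7 at -0.12 ± 0.07 and Dhdds at 0.10 ± 0.10. Lipoprotein uptake genes (7 measured, 4 higher) gave Mylip, a liver X receptor target that degrades lipoprotein receptors, at 0.19 ± 0.08, the apolipoprotein E receptor gene Lrp8 at 0.15 ± 0.09 and Lrpap1 at 0.07 ± 0.07. Efflux and lipoprotein genes (12 measured, 5 higher) held the lowest difference of the 6 lists. Lcat, which esterifies cholesterol on lipoproteins and is made by astrocytes in the brain, read 7.24, 7.30, 7.33 and 7.06 against 7.48, 7.38, 7.67 and 7.74. All 4 arrays labelled TNF-/- lay below the others, as for 3.50% of all genes. The difference was -0.34 ± 0.10 (limma, unadjusted p = 0.00762, adjusted p = 0.313). Abca8a and Abca3 in that list differed by 0.49 ± 0.18 and 0.16 ± 0.07.

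Genes of sterol esters and of transport inside the cell (16 measured, 12 higher) gave the sterol carrier gene Stard5 at 0.36 ± 0.15 (SE), the lysosomal esterase gene Lipa at 0.28 ± 0.11 and Osbpl2 at 0.18 ± 0.07. Gramd1a in this list was higher by 0.09 ± 0.05 (limma, unadjusted p = 0.0952). Its groups did not overlap, as for 4.16% of all genes in this direction. Lamp1 in this list was lower, by -0.22 ± 0.09 (limma, unadjusted p = 0.043, adjusted p = 0.448). Stard5 read 6.11, 6.25, 6.72 and 6.72 under the label TNF-/-, so that, as for Stard4, arrays 3 and 4 were the high ones, against 6.10, 6.22, 5.99 and 6.05. Partners of the liver X receptors (6 measured, 2 higher) gave Rxra at 0.15 ± 0.07, Rxrb at -0.05 ± 0.08 and the dim Abca12 at -0.05 ± 0.05. None of the genes in this paragraph passed (limma, adjusted p = 0.437 or higher).

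Fatty acid synthesis, the branch that SREBP-1 drives, was read as a neighbour. Under the label TNF-/- 9 of its 13 genes had more signal and 4 less (median 0.09), and 0 were called by limma or SAM. That is 69.2% higher, beside 47.8% of all genes and 64.4% of genes at or above the median of mean signals. At an unadjusted p under 0.05 there were 5 higher (38.5%) and 1 lower (7.69%), beside 7.37% and 4.28% of all genes. The same background among genes at or above the median of mean signals was not computed. Acss2, which makes acetyl-CoA from acetate, read 8.71, 8.90, 9.09 and 9.05 against 8.63, 8.58, 8.73 and 8.71. Only TNF-/- array 1 lay within the other group, and the difference was 0.28 ± 0.09 (SE; limma, unadjusted p = 0.0137, adjusted p = 0.358). The elongase gene Elovl6 differed by 0.24 ± 0.09 and the desaturase gene Scd1 by 0.22 ± 0.08 (limma, adjusted p = 0.414 for both). Elovl1 was the gene lower at an unadjusted p under 0.05, by -0.21 ± 0.09 (limma, unadjusted p = 0.0442, adjusted p = 0.452). Fasn, Fads1 and Acacb differed by -0.04 ± 0.09, -0.01 ± 0.06 and 0.00 ± 0.07. The count of 5 was 3 after quantile normalization and 2 after median centring. A filter on dim probe sets gave 3, as did the fit without TNF+/+ arrays 3 and 4. With 1 array left out it was 3 without TNF-/- arrays 1 or 4, 2 without TNF+/+ arrays 2 or 3, and 1 without TNF-/- array 3 or TNF+/+ array 1.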

How the data were processed

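The deposited table holds the authors' log2 signal of 35556 probe sets on 8 arrays; GCOS, GCRMA and Partek are named in the submitters' processing notes. No genome build is given in the sources used here. The log2 scale was read from the values (2.83 to 14.1), which were used as deposited, without a filter. Gene names came from the platform's annotation (21789 probe sets with 1 symbol), and each gene was read from its probe set with the highest mean. Groups came from the sample titles. Limma 3.58.1 in R 4.3.3 (genotype term, eBayes, two-sided) was fitted over all probe sets with Benjamini-Hochberg adjustment; a call is an adjusted p under 0.05, SE is the moderated error, and intervals are 95%. SAM was rebuilt with all 70 assignments, s0 of 0.0357 and a false discovery rate of 4.49%. Data with 35556 probe sets were simulated with normal noise drawn independently for each probe set and array. Differences shared across an array, such as those on the first principal component, were not simulated, so the rates below leave them out. On these data limma recovered 47% of 100 probe sets shifted by 0.5 on the log2 scale. It recovered 82% of 100 shifted by 1, and 94.8% of its intervals held the true value. Probe sets without a simulated shift made up 6.52% of what limma picked there, and 7.3% with SAM. Shifts as small as the largest member difference, 0.27, were not simulated, so recovery at the size of the members' differences was not tested. Figures used matplotlib 3.10.9.

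The members and lists were chosen with earlier results of these data known, so no p was computed for a list, and none was adjusted over the members. Named beside the members are Tnf, the 3 genes with the smallest p of each pathway list, and the 2 brightest markers of neurons, astrocytes and oligodendrocytes. Elovl1, Fasn, Fads1, Acacb, Gramd1a and Lamp1 were named in addition, outside that rule. Genes without a probe set of 1 symbol were not analysed here. Promoters are those of RefSeq, GRCm38.p6.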

Additional observations from a re-analysis of the deposited data

Results flagged for a closer look

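In all, 3 values stood far from the rest of their group of 4 by Dixon's criterion, among 142 groups examined; chance alone sets about 1 in 20 such groups apart. Idi1 read 8.66 in TNF+/+ array 1, where the other 3 arrays of that label read 8.75 to 8.76. Npc1 read 8.72 in TNF-/- array 1, against 8.57 to 8.58 in the other 3. The mean of the cerebellum markers was 7.79 in TNF+/+ array 1, against 6.37 to 6.45 in the other TNF+/+ arrays. Without that array 2 of the enzymes, in place of 4, were higher at an unadjusted p under 0.05. This drop was not particular to it. The count was also 2 without TNF-/- array 2, TNF-/- array 3 or TNF+/+ array 3, and 1 without TNF-/- array 4. The part of cerebellar tissue was not tested.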

How the results depend on the processing

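No member was called under any setting tried, and the lowest adjusted p of a member was 0.221. The 29 probe sets called by limma became 63 among probe sets with 1 symbol, 53 by SAM, 0 without TNF+/+ arrays 3 and 4, and 1 to 20 with 1 array left out; the cause was not tested beyond the fewer probe sets or arrays. With the replicate number as a block, 0 probe sets and 0 members were called; same-numbered arrays correlated at 0.067 to 0.112, those of different number at -0.116 to 0.101 (9 of 12 pairs below 0), and 6 of 8 arrays were closest to their own number. This is a hint from the data, not the design, and the numbers were taken as names only, since 1 of 4 same-numbered pairs passed 0.1. Enzymes higher at an unadjusted p (4; this count, and those of fatty acid genes and of members higher, were added after seeing the data) numbered 2 after quantile normalization, 2 after median centring, 2 without TNF+/+ arrays 3 and 4, and 1 to 5 with 1 array left out. Fatty acid genes (5) numbered 3, 2 and 3 under those settings, 3 without dim probe sets, and 1 to 4. Without TNF+/+ arrays 3 and 4 the medians of synthesis members and enzymes were 0.115 and 0.134; with 1 array left out they were 0.022 to 0.069 and 0.031 to 0.081, and that of transport members -0.014 to 0.032.

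The 20 members higher numbered 15 after quantile normalization, 18 after centring, 25 without TNF+/+ arrays 3 and 4, and 17 to 23 with 1 array left out. Signs turned in 18 of 299 member values outside the omission of single arrays. After quantile normalization these were Pmvk -0.01, Tm7sf2 -0.006, Insig1 -0.009, Npc1 -0.023 and Abca1 -0.006; after centring, Insig1 -0.013 and Npc1 -0.017; with array weights, Npc1 -0.004; with the mean of probe sets, Fdft1 -0.017. Without TNF+/+ arrays 3 and 4 they were Mvk 0.052, Mvd 0.11, Fdft1 -0.081, Sqle 0.028, Ebp 0.046, Abcg1 0.007, Apoe 0.024, Cyp46a1 0.092 and Nr1h3 -0.071. With 1 array left out, 13 members took either sign: Mvk -0.1 to 0.049, Pmvk -0.055 to 0.16, Mvd -0.079 to 0.097, Fdft1 -0.063 to 0.12, Sqle -0.078 to 0.006, Tm7sf2 -0.008 to 0.083, Sc5d -0.018 to 0.069, Insig1 -0.055 to 0.061, Srebf2 -0.024 to 0.072, Npc1 -0.034 to 0.043, Abcg1 -0.032 to 0.043, Cyp46a1 -0.14 to 0.028 and Nr1h3 -0.029 to 0.075. The number of arrays limits the precision: with 4 against 4, a change of 1.25-fold lay outside the interval for 20 of 30 members.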
